A study of Homo sapiens with 6 samples.

Results

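The 10 genes described here encode plasma proteins of blood coagulation or its control: F2, F5, F7, F9, F10, F11, F12, F13B, PROC and SERPINC1. They were taken by name from the 20033 protein-coding genes of GENCODE release 44, and all 10 were found. The rule that names them uses no measured value, but it was written with earlier results of these data known. What was measured is which mononucleosomes were pulled down by an isolated, GST-tagged fragment of UHRF1, its tandem Tudor domain (TTD), from chromatin of HepG2 cells, an established human liver cancer line derived from a hepatoblastoma. CIDOP with the TTD, ChIP for H3K9me2 and the input each had 2 replicates, all from this line and with no treatment or genotype to compare. CIDOP is such a pulldown of native mononucleosomes, in which the reading domain is used in place of an antibody. Binding of the whole UHRF1 protein in the cells was not measured. The values come from the list of 31569 broad TTD peaks on hg38 that the authors made from the mean of both TTD replicates, which holds positions and widths but no height, score or p-value. There is therefore no error between replicates for any value, the read depth behind a peak is unknown, and a gene without a peak is one where none passed the authors' cutoffs and was kept after their removal of blacklisted regions and curation by hand.

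Coagulation is a cascade in which inactive plasma proteases are cut into active ones, ending in thrombin, which turns fibrinogen into fibrin. Most of its factors are made by hepatocytes and secreted into the blood. F2, F7, F9, F10 and PROC encode the vitamin K-dependent proteases prothrombin, factor VII, factor IX, factor X and protein C, of which the first 4 promote clotting and protein C limits it. F11 and F12 encode the proteases that start and amplify the contact route, F5 the cofactor of factor Xa, F13B the carrier subunit of the fibrin-crosslinking factor XIII, and SERPINC1 antithrombin, the main inhibitor of thrombin and factor Xa. UHRF1 is a chromatin protein needed for the upkeep of DNA methylation, and its TTD is known to bind histone H3 methylated at lysine 9.

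Of the 10 genes, 4 held a TTD peak in the gene body, namely F5, F11, F12 and F13B, whereas 34.2% of all protein-coding genes did. The count depends on narrow peaks: with only those peaks that were 2250 bp (the median width) or wider, it was 1, F5, against 20.5% of all genes. Within 2.5 kb of the 5 prime end of the gene record, 4 genes had a peak, F5, F11, F13B and SERPINC1, against 16.9% of all genes. The count was 2 with 1 kb on each side, F11 and F13B, and 5 with 5 kb on each side, where PROC was added, and the shares of all genes were 11.1% and 22.1%. When the transcription start site (TSS) of the canonical transcript was used instead, F12 joined them and the count was 5 of 10, with 16.9% over all genes again. Finally, 9 of the 10 genes had at least 1 peak in the gene body or within 100 kb of it, close to the 82.4% of all genes. The gene without one was F9. As the genes are few and were not drawn from the rest at random, these counts are descriptions and carry no test.

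None of the 5 vitamin K-dependent proteases had a peak within 2.5 kb of the canonical TSS or in the gene body. All 5 of the remaining genes, F5, F11, F12, F13B and SERPINC1, had a peak within 2.5 kb of it. This division was made after the values had been seen and is also untested. The shares of all genes beside it are 16.9% at the TSS, for 0 of 5 and 5 of 5, and 34.2% in the gene body, for 0 of 5 and 4 of 5. It depended on the window as well. Around the 5 prime end of the gene record, 4 of the 5 remaining genes had a peak, without F12, and with 5 kb on each side PROC had 16.4% of the window in a peak. It did not extend to every vitamin K-dependent protein of the plasma: PROZ, the neighbour of F10 that encodes protein Z, had 43.3% of the 5 kb around its TSS in a peak, and PROS1, which encodes protein S, the cofactor of protein C, held 3 peaks over 5.53% of its gene body but none within 2.5 kb of its TSS.

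**Figure D1:**
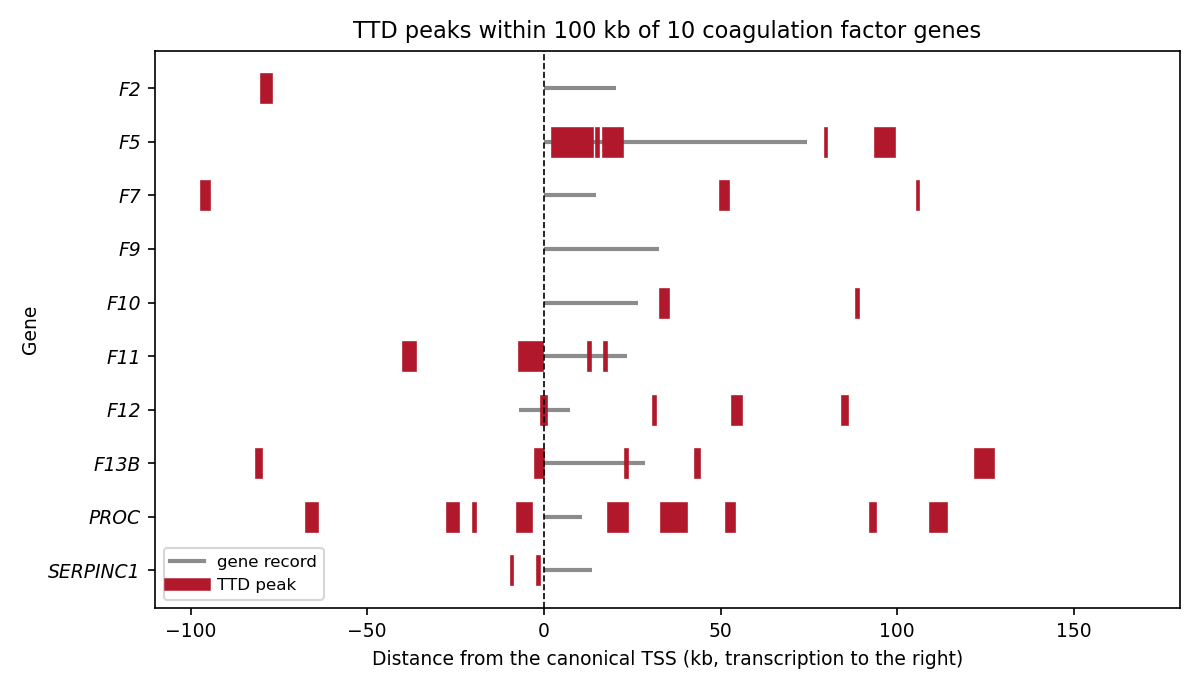
TTD peaks (red blocks) in the gene body and within 100 kb of it for the 10 coagulation factor genes, drawn by distance in kb from the canonical TSS (dashed line) with transcription to the right; grey lines are the gene records. F9 has no peak, PROC has 9 in its surroundings but none in its body, and the 3 body peaks of F5 follow its TSS.

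Among the proteases that promote clotting, F2 lies on chromosome 11 at positions 46719196 to 46739506, on the plus strand. Its surroundings held 1 peak of 3150 bp, which lay in ATG13 and ended 77103 bp upstream of the F2 TSS. The cover, meaning the percent of sequence in peaks, was 1.43% for the gene body and 100 kb on each side, and 59.2% of all genes had at least this much. The gene of prothrombin was thus free of listed peaks, in a region with less cover than the median of 2.11% over all genes. Among the 1317 protein-coding genes of chromosome 11, 47.4% had at least as much cover as F2.

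F7 and F10 are neighbours on chromosome 13, at positions 113105788 to 113120685 and 113122799 to 113149529, both on the plus strand and 2113 bp apart. They share the peaks on their downstream side, of 2910 bp and 890 bp, so that their values are not independent. The nearer of these began 32602 bp downstream of the F10 TSS and 49610 bp downstream of the F7 TSS. It lay beyond the end of F10 and just before PROZ, which starts 9118 bp after F10, and its last base was 338 bp upstream of the PROZ TSS. The other fell in CUL4A, which encodes a scaffold of ubiquitin ligases. F7 had another peak of 2820 bp in MCF2L, 94461 bp upstream of its TSS. With the gene body and 100 kb on each side, 3.08% was covered for F7 and 1.68% for F10. Thus, in the row F7, F10 and PROZ, the peak closest to any of the 3 TSSs was at PROZ.

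F9, the gene mutated in haemophilia B, lies on the X chromosome at positions 139530739 to 139563459, on the plus strand. It stood apart from the other 9 genes by its distance from any peak. The nearest one, of 1960 bp, was 1414022 bp downstream of its TSS, and 50 of the 20033 protein-coding genes, F9 included, lay as far from a peak or farther. The X chromosome was sparsely covered as a whole, with 0.533% of its sequence in peaks against 3.02% of the genome, and 58.4% of its 859 protein-coding genes had no peak within 100 kb. The part of the chromosome in the value of F9 was not tested beyond this. The 250 bases before its TSS are shown as a peak-free member of the group, with the CpG dinucleotides in capitals here and in the sequences below.
F9, chrX:139530489-139530738, plus strand, hg38: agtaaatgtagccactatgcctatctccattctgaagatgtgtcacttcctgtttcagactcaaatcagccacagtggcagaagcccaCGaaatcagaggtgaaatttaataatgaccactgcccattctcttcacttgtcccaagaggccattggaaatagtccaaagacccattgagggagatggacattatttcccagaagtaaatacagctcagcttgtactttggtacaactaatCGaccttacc
This stretch contains 2 CpGs and lies in no peak.

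PROC, on chromosome 2 at positions 127418427 to 127429242 and on the plus strand, was the opposite case. Its gene body of 10816 bp and the 2.5 kb on each side of its TSS were without a peak, but 9 peaks lay within 100 kb and covered 15.6% of that region. Of all protein-coding genes, 3.93% were covered at least as much, and the next of the 10 genes was F5 with 9.47%. Chromosome 2 was covered to 5.67%, the highest among the chromosomes that carry these genes, and among its own 1247 protein-coding genes 11.6% reached the cover of PROC. On the upstream side, the peaks were 3440, 3600, 1230 and 4670 bp wide, the first of them in MAP3K2 and the next 2 in the noncoding gene MAP3K2-DT. The last ended 3357 bp before the TSS. On the downstream side, 4 peaks fell in IWS1, which encodes a transcription elongation factor, and 1 of 5180 bp lay beyond it. The record of IWS1 lies 6964 bp from that of PROC, and 20.1% of its gene body was in peaks. PROC thus lay in a gap of the peaks, from 3357 bp upstream to 17874 bp downstream of its TSS, within a stretch covered more than most. Such a gap was not particular to the gene. Wider ones lay from 64077 to 27746 bp upstream and from 54063 to 91954 bp downstream of its TSS.

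The 4670 bp peak upstream of PROC was poor in CpGs at its centre. The central 300 bases are printed because this is the peak closest to the gene.
PROC upstream peak centre, chr2:127412586-127412885, plus strand, hg38: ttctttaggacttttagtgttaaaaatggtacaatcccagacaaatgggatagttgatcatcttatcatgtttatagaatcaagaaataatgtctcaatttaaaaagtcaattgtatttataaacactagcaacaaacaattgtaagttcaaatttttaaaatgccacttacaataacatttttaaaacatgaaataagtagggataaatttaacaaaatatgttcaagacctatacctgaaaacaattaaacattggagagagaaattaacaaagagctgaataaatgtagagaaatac
It has no CpG and is rich in A and T. Over the whole peak the GC content was 39.3% and the CpG observed/expected ratio 0.260. At the TSS of PROC, in a window of 1 kb, these were 55.2% and 0.237. The ratio of the whole peak was above the upper quartile of all peaks, 0.251, so that its centre does not stand for the peak.

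Of the proteases of the contact route, F11 lies on chromosome 4 at positions 186266189 to 186289681, on the plus strand. A peak of 7030 bp ended 349 bp before its TSS, and 6.16% of all peaks were as wide or wider. Because of it, 70.3% of the 10 kb upstream of the TSS was covered, whereas the 10 kb downstream contained no peak. Of the 5 kb around the TSS, 43.0% was in the peak, a value reached by 3.45% of all genes. Farther into the gene, peaks of 990 and 1160 bp were listed in intron 7 and intron 10 of the 14 introns of the canonical transcript, and they made up 9.15% of the gene body.

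F11 follows KLKB1 on the same strand, with 7717 bp between the genes. KLKB1 encodes plasma prekallikrein, which is activated by factor XIIa and is related to factor XI in sequence. The canonical TSS of KLKB1 lay inside a peak of 3970 bp and 78.9% of the 5 kb around it was covered, whereas at F11 the peak stopped short of the TSS. The 250 bases before the F11 TSS contain no base of the peak, whose end is 349 bp away.
F11, chr4:186265939-186266188, plus strand, hg38: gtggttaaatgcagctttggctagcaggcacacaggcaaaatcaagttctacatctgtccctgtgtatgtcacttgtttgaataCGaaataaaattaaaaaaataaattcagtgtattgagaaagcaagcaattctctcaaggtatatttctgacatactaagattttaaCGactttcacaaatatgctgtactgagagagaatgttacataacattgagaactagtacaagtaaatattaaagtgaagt
They hold 2 CpGs, as many as the same stretch of F9, which has no peak within 100 kb. This pair does not stand for the group. In the same 250 bases, F12 and F13B had 1 CpG each and F5 had 4, all with a peak within 2.5 kb of the TSS. Of the genes without one there, F2 had 3, F7 6, F10 9 and the starts of PROC 4 and 3. A link between CpG number and peaks was not tested.

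F12, on chromosome 5 at positions 177402133 to 177416583 and on the minus strand, was the only one of the 10 genes with its canonical TSS inside a peak. Among the 3394 protein-coding genes with a peak within 2.5 kb of the canonical TSS, 12.9% had the TSS inside it, and among the 5 such genes here it was F12 alone. The peak of 2150 bp ran from 1196 bp upstream to 953 bp downstream of the TSS and took in exons 1 and 2 and at least part of introns 1 and 2. It covered 43% of the 5 kb around the TSS and all of the central 500 bp. This value depends on which start is used. The gene record begins 7019 bp upstream of the canonical TSS, at the start of a longer transcript, and within 2.5 kb of that position no peak was listed. The peak also lies in the record of GRK6, a G protein-coupled receptor kinase gene that overlaps F12 on the opposite strand, and no strand can be assigned to a peak. The promoter sequence of F12 is printed from 250 to 12 bases before its TSS, and each of these 239 bases lies in the peak.
F12, chr5:177409576-177409814, minus strand, hg38: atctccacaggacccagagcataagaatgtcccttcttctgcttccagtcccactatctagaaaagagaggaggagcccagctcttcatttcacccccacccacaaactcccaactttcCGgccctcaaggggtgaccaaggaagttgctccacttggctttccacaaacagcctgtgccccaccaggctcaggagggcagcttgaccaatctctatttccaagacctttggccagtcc
It holds 1 CpG.

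**Figure D2:**
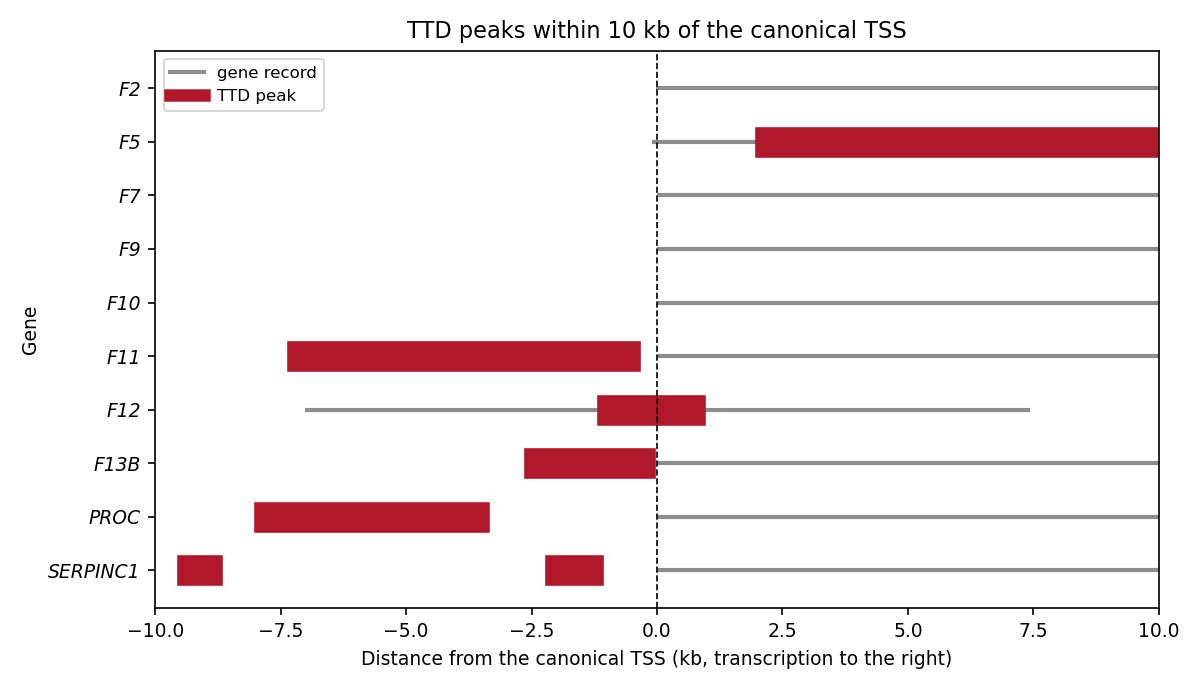
The same peaks within 10 kb of the canonical TSS (dashed line), with distance in kb and transcription to the right; grey lines are the gene records and red blocks the TTD peaks. Peaks of F11, F13B, PROC and SERPINC1 lie upstream and end before the TSS, the peak of F12 spans it, and that of F5 begins 1961 bp after it.

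F5, the largest of the 10 genes at 74638 bp, lies on chromosome 1 at positions 169511951 to 169586588, on the minus strand. It was also the gene with the most sequence in peaks within its body, at 19040 bp or 25.5%, and 2.81% of all genes were covered as much. A peak of 11870 bp began 1961 bp after the canonical TSS and reached from intron 1 through exon 2 into intron 2. Only 1.37% of all peaks were as wide. The next 2 peaks, of 1150 and 6020 bp, both lay in intron 3. Accordingly, 80.4% of the 10 kb downstream of the TSS was in peaks and none of the 10 kb upstream, the reverse of F11. From 22350 bp after the TSS to the end of the gene, no peak was listed. Of the 5 kb around the canonical TSS, 10.8% was covered, the lowest value among the 5 genes with a peak there.

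The centre of the widest F5 peak is printed as an example of covered sequence inside a gene.
F5 widest peak centre, chr1:169578436-169578735, minus strand, hg38: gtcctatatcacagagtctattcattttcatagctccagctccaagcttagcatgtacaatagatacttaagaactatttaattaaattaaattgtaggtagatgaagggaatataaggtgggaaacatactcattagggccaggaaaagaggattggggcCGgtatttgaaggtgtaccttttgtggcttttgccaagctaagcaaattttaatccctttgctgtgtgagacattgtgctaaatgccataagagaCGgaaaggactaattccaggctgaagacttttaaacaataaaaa
It lies 7746 to 8045 bp after the TSS and has 2 CpGs. Over the whole peak the CpG observed/expected ratio was 0.128, lower than the 0.254 of the 1 kb around the F5 TSS, where no peak was listed.

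F13B lies on chromosome 1 at positions 197038741 to 197067260, on the minus strand. It had the highest cover at a TSS, with 49.4% of the 5 kb window in 1 peak of 2630 bp that ended 31 bp before the TSS. Of all genes, 2.40% were covered as much. The cover of the central 500 bp was 44%, and no peak was listed in the 10 kb downstream. A peak of 1010 bp in intron 10 of 11 made up the 3.54% of the gene body that was covered. F13B is close to the complement factor H family, whose proteins share a repeated domain with its own, and within 100 kb a peak of 5670 bp contained the TSS of CFHR2, a complement factor H related gene, with 83.7% of the 5 kb around it covered. The 250 bases before the F13B TSS lie in the peak with 220 bases, all but the last 30.
F13B, chr1:197067261-197067510, minus strand, hg38: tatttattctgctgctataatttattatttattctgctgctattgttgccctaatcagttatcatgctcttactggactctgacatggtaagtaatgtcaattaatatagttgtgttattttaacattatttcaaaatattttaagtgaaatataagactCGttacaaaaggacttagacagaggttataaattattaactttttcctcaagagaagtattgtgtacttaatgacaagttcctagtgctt
This sequence is made up largely of A and T and holds 1 CpG. The promoter as listed by RefSeq, 300 bases long, was covered to 73.3%.

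SERPINC1, on chromosome 1 at positions 173903800 to 173917327 and on the minus strand, had no peak in its body. Upstream, a peak of 1160 bp ended 1074 bp before the TSS and covered 23.2% of the 5 kb around it, which 9.65% of all genes reached. A second one of 910 bp lay 8664 bp upstream. These narrow peaks were the only ones within 100 kb, and the cover of that region was 0.969%, with at least as much in 67.0% of all genes. The antithrombin gene was the reverse of PROC here, with a peak close to the TSS and little cover around.

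**Figure D3:**
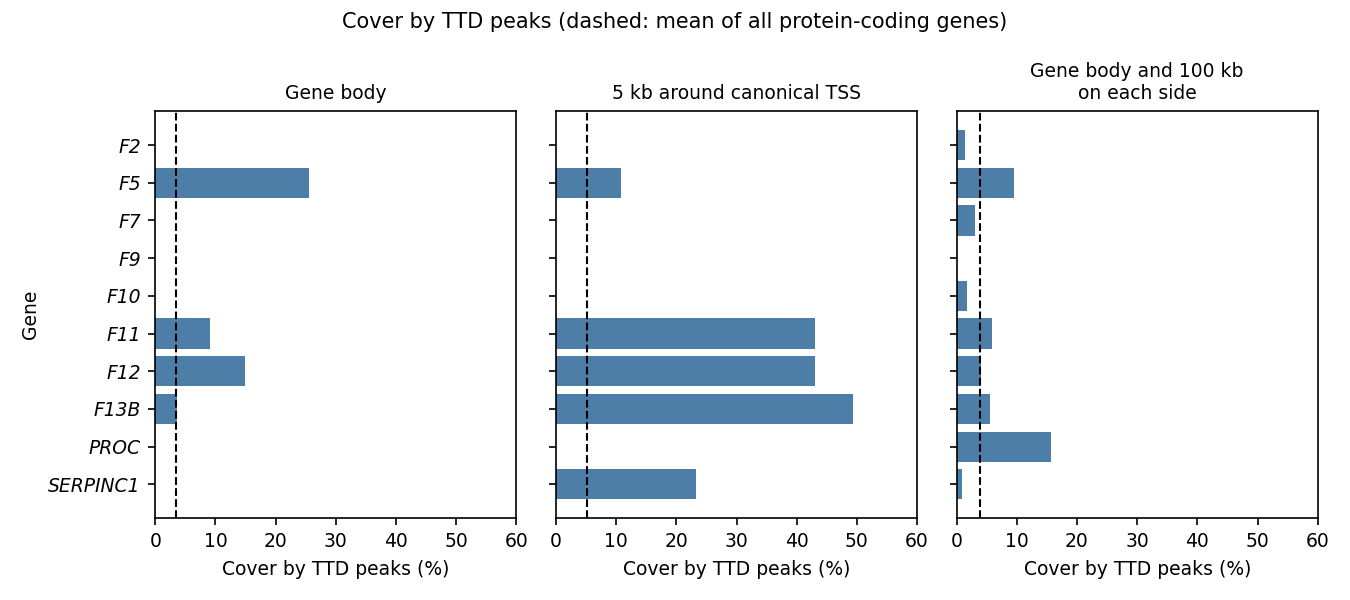
Percent of the gene body, of the 5 kb around the canonical TSS and of the gene body with 100 kb on each side that lies in TTD peaks, with 1 bar for each gene from the pooled list and therefore no error bar; the dashed lines are the means over all 20033 protein-coding genes. F5 leads in the gene body with 25.5%, F13B at the TSS with 49.4% and PROC in the surroundings with 15.6%.

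The 3 measures ordered the genes differently. In the gene body the order was F5 with 25.5%, F12 with 14.9%, F11 with 9.15% and F13B with 3.54%, with the other 6 genes at 0. At the canonical TSS it was F13B with 49.4%, F11 with 43.0%, F12 with 43%, SERPINC1 with 23.2% and F5 with 10.8%. For F11 and F12 these values differ by less than the 10 bp step of the peak positions can resolve. In the region of 100 kb on each side, PROC was followed by F5, F11 with 5.88%, F13B with 5.55% and F12 with 3.99%. The median of the 10 genes was 0 for the gene body, as over all genes, with means of 5.31% and 3.39%. Around the 5 prime end of the gene record the median was 0 for both, with means of 12.4% and 5.30%. Around the canonical TSS it was 5.4% for the 10 genes and 0 for all genes, with means of 16.9% and 5.19%. Within 100 kb, the median number of peaks was 3.5 against 3 and the median cover 3.54% against 2.11%. The canonical TSS of a coagulation factor gene was a median 2.66 kb from the nearest peak, and that of any protein-coding gene 30.5 kb. The means went the other way, with 158 kb and 86.5 kb, and F9 lay farthest of the 10 at 1414 kb. From the 5 prime end of its gene record, F12 was 5823 bp from a peak in place of 0.

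In total, 33 different peaks lay in or within 100 kb of these genes. Of these, 7 were in the gene bodies, and 5 of the 7 fell wholly in introns. Another 12 lay upstream and 14 downstream of the genes. Their median width was 2760 bp, against 2250 bp for all peaks, and they ranged from 890 to 11870 bp, where the quartiles of all widths were 1370 and 3650 bp. Their median GC content was 44.8% and their median CpG observed/expected ratio 0.209, with 43.2% and 0.193 over all 31569 peaks. The 12 of these peaks in or within 5 kb of a gene were narrower and lower in GC, with medians of 1655 bp and 41.0%, and a CpG ratio of 0.222. All these medians lay within the quartiles of all peaks.

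The side of the TSS on which the nearest peaks lay was compared next. Of the 6 genes with a peak within 10 kb of the canonical TSS, F11, F13B, PROC and SERPINC1 had peaks only upstream, F12 on both sides, and F5 only downstream. Over all 5983 protein-coding genes with a peak in this range, 45.2% had peaks only upstream, so that the count of 4 in 6 is not far from this background.

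**Figure D4:**
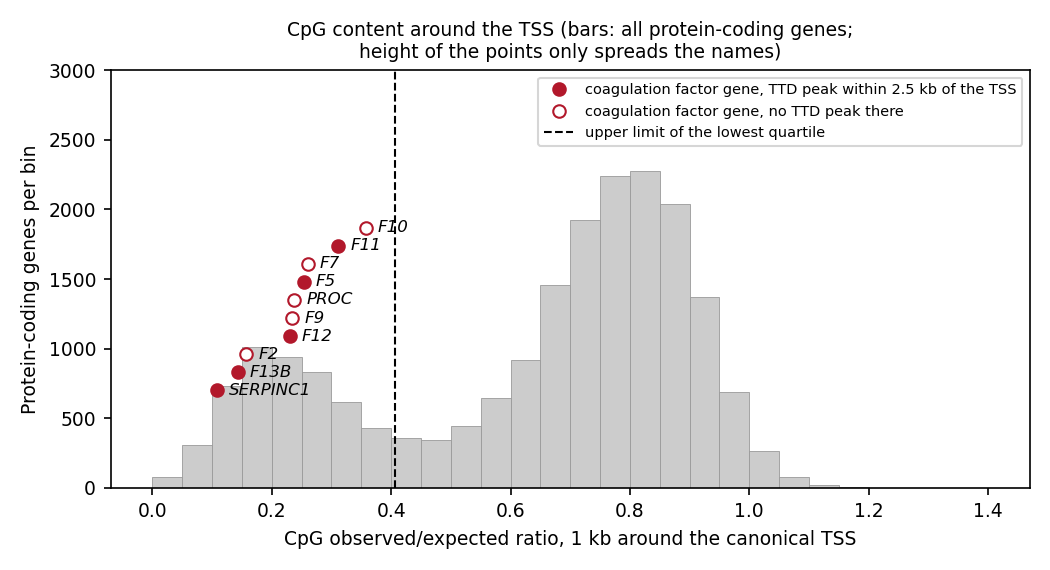
CpG observed/expected ratio in the 1 kb around the canonical TSS, with grey bars for the number of protein-coding genes per bin and circles for the 10 coagulation factor genes, filled where a TTD peak lies within 2.5 kb of the TSS; the height of the circles has no meaning. All 10 lie below the limit of the lowest quartile, 0.407 (dashed line), and filled and open circles overlap.

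A feature all 10 genes shared was a start site poor in CpGs. The CpG observed/expected ratio in the 1 kb around the canonical TSS ranged from 0.109 at SERPINC1 to 0.357 at F10, with a median of 0.236, against 0.725 over all protein-coding genes. All 10 genes fell in the lowest quartile of all genes, which ends at 0.407. Within that quartile of 5009 genes, 14.1% had a peak within 2.5 kb of the canonical TSS, and 5 of the 10 genes did. Among the 10 genes themselves, those with such a peak had ratios from 0.109 to 0.311 and those without one from 0.158 to 0.357, so that the ranges overlapped. This trait was shared with 15 other genes of coagulation and fibrinolysis for plasma proteins made mainly by hepatocytes, of which 14 were in the lowest quartile, with a median ratio of 0.194. The GC content of the windows of the 10 genes ran from 29% at F13B to 59.2% at F10.

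The promoters of the RefSeq table for GRCh38.p14, which span 250 bases before and 50 bases after each start, included 9 of the 10 genes, all but SERPINC1, with 2 starts for PROC. Their number of CpGs ranged from 1 at F13B to 10 at F10, against a median of 21 over 22199 promoters of protein-coding genes. A peak overlapped the promoters of F12 and F13B and none of the others. Short motifs of liver transcription factors were searched on both strands in these windows. TATAAA, the core of the TATA box, was found at F13B from 64 to 59 bases before the start and occurs in 9.47% of all promoters. GTTAAT, a core of the HNF1 site, was found as its reverse complement at F13B, F2 and the first start of PROC, and in 5.55% of all promoters. At F13B its position was 56 to 51 bases before the start, which is in the covered part of the promoter and does not overlap the TATAAA match. CAAAGTC, the HNF4 core, was found at F10 (3.01% of all promoters) and TTGCNNAA, for C/EBP, at the second start of PROC (8.69%). TGTTTNC, for FOXA factors, matched none of the 10 windows and 15.3% of all promoters. These matches are to letters only and say nothing on whether a factor is bound.

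**Figure D5:**
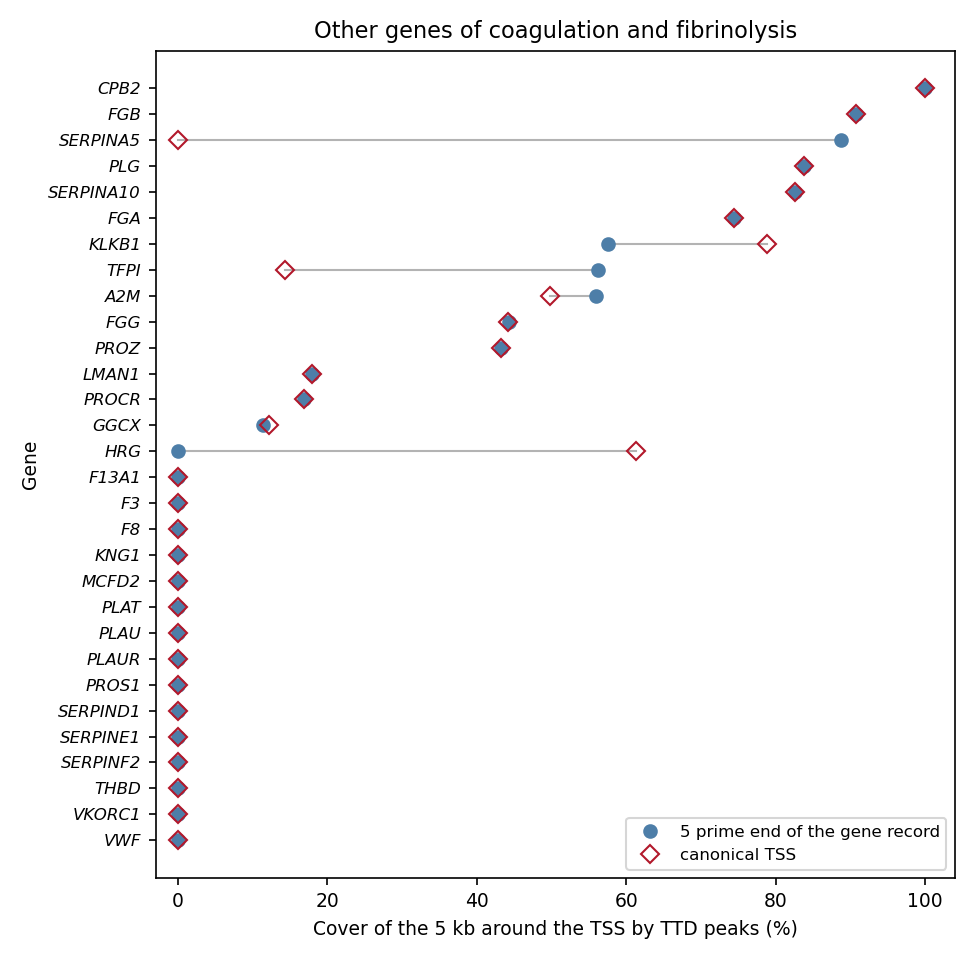
Percent of the 5 kb around the TSS in TTD peaks for 30 other genes of coagulation and fibrinolysis, at the 5 prime end of the gene record (blue circles) and at the canonical TSS (red diamonds), 1 value each from the pooled list. CPB2 is covered to 100% at both, SERPINA5, HRG, TFPI and KLKB1 differ between the 2 positions by more than 20 percentage points and 3 others by less, and 15 genes are at 0 for both.

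The rest of the coagulation and fibrinolysis pathway was examined with a list of 30 other genes. Of these, 21 had a peak in the gene body, 14 within 2.5 kb of the 5 prime end of the gene record, 14 within 2.5 kb of the canonical TSS, and 28 in the gene body or within 100 kb. These counts stand beside the same backgrounds of 34.2%, 16.9%, 16.9% and 82.4%. Cover of at least 50% around the 5 prime end was seen at CPB2, which encodes an inhibitor of fibrinolysis, with 100%, at the fibrinogen chain genes FGB with 90.8% and FGA with 74.4%, and at PLG, the gene of plasminogen, with 83.8%. The protease inhibitor genes SERPINA5 with 88.8%, SERPINA10 with 82.6%, TFPI with 56.2% and A2M with 56.0% were also among them, and so was KLKB1 with 57.5%. At the canonical TSS, the values were 0 for SERPINA5, 14.3% for TFPI and 49.8% for A2M. HRG, for a histidine-rich plasma glycoprotein, had 0 at the 5 prime end and 61.3% at the canonical TSS. KNG1, for the kininogen that circulates with factor XI and prekallikrein, had 10.3% of its gene body in peaks and none within 2.5 kb of either start.

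None of the 10 coagulation factor genes reached 50% at either start, and F13B came closest. Among the 30 other genes, the 15 that encode plasma proteins made mainly by hepatocytes had a median of 49.8% around the canonical TSS. A peak lay there in 10 of the 15, beside 16.9% of all genes. Of the other 15, made mainly by other cells or not secreted, 4 had one, with a median of 0. This division rests on general knowledge, was made after the values had been seen, and was not tested. The 10 genes, which also encode liver plasma proteins, had a peak there in 5 of 10 and a median of 5.4%. In the gene body, they had a peak in 4 of 10 against 12 of 15 and 9 of 15, beside 34.2% of all genes. The median cover there was 0 against 15.2% and 0.836%. The median gene length was 21.9 kb against 18.0 kb and 31.4 kb, and its part in these counts was not tested. The median number of peaks within 100 kb was 3.5 against 7 and 4, and the median cover of that region 3.54% against 11.997% and 2.23%. The distance to the nearest peak was likewise a median 0.299 kb for the 15 hepatocyte genes and 15.2 kb for the other 15, with 2.66 kb for the 10. The surroundings of the fibrinogen chain genes overlap, as do those of KNG1 and HRG, so that their values are not independent. The peaks nearest to the KLKB1 and PROZ TSSs were also counted near F11, and near F7 and F10.

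For some genes around the coagulation factors, a peak counted above lay within 2.5 kb of their own 5 prime end. Over all protein-coding genes, 16.9% had a peak in that window. At F12, such neighbours were LMAN2 with 15.6% of the 5 kb around the 5 prime end, RGS14 with 23.3% and SLC34A1 with 25.8%, 3 of 13. For LMAN2 and RGS14 it was the same peak of 3030 bp. At F13B, the neighbours were ASPM with 35.2% and CFHR2 with 83.7%, 2 of 4. At F11 it was KLKB1 and at F5 SLC19A2 with 26.9%, 1 of 4 in each case. At PROC they were IWS1 with 38.3% and MAP3K2 with 5.68%, 2 of 2. At F7 and F10, these were PROZ and PCID2, the latter with 4.48%, 2 of 5 for each. No neighbour of F2, F9 or SERPINC1 within 100 kb had a peak within 2.5 kb of its 5 prime end. Which neighbours count depended on the start used. Around the canonical TSS, SLC34A1 and MAP3K2 had 0, whereas CUL4A, near F7 and F10, had 17.8%. A peak within 100 kb of a coagulation factor gene was therefore in several cases closer to the start of another gene, as for F7, F10 and PROC.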

How the data were processed

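Libraries were made from HepG2 cells after CIDOP with the TTD, after ChIP for H3K9me2 and from input, with 2 replicates each. The authors used Trimmomatic 0.38 for trimming and HISAT2 2.2.1 for mapping to hg38, computed RPKM coverage in 10 bp bins with deepTools 3.3.2, averaged both TTD replicates, called broad peaks on the mean with MACS2 2.1.1 at fixed cutoffs, and curated them by hand. The values they deposited are the positions and widths in bp of 31569 peaks, and this list was used as it stands. The separate signal tracks were not used here. The pooling of replicates, hand curation and fixed cutoffs all bear on which genes have a peak, and no input track or correction for copy number is named for the peak calling.

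Peaks were overlapped with GENCODE release 44 genes. An overlap of 1 bp counted as a peak, and cover is the percent of a window in peaks. The TSS was the 5 prime end of the gene record or, as an alternative, that of the canonical (MANE Select) transcript. Base composition was read from hg38 and promoters from the RefSeq table. No test was made. The genes, the lists and the rule for naming them were chosen with earlier results of these data known. The rule names all 10 genes, other coagulation genes with at least 50% cover of the 5 kb around the TSS, and KLKB1, PROZ and KNG1. It also names neighbours whose TSS window holds a peak within 100 kb of a member. PROS1, HRG, CUL4A and the neighbours named for position only (ATG13, MCF2L, GRK6 and MAP3K2-DT) were chosen after their values were seen. The overlap functions were tested on 2000 simulated windows and differed from base by base counts in 0. Python 3.11.15, numpy 2.4.6, pysam 0.24.0 and matplotlib 3.10.9 were used.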

Additional observations from a re-analysis of the deposited data

How the results depend on the processing

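No paired analysis was possible because the peak list used here comes from the mean of both replicates, and from this list no replicate could be left out. With only the 15790 peaks that were 2250 bp (the median) or wider, 1 gene in place of 4 had a peak in the gene body, F5 (20.5% of all genes in place of 34.2%), and the median cover within 100 kb was 2.05% in place of 3.54% (1.19% in place of 2.11% over all genes). With 1 kb on each side of the gene record's 5 prime end, 2 genes in place of 4 had a peak there, F11 and F13B (11.1% of all genes in place of 16.9%). With the canonical TSS, the median cover of the 5 kb around it was 5.4% in place of 0. With the flanks alone, without the gene body, the median cover within 100 kb was 3.26% (2.06% over all genes). The TSS count was 5 with 5 kb on each side and with the canonical TSS (22.1% and 16.9% of all genes). It was 3 with the wider peaks alone and with at least 500 bp in peaks, where no share of all genes was computed beside it. Under the other alternatives, the median of the gene bodies was 0 and the median number of peaks was 3. The gene-body count was 4 with at least 500 bp in peaks and over the span of the canonical transcript, again with no share of all genes. The latter setting, like the rank within a chromosome, was chosen after seeing the data. Of 90 recomputed values of single genes, 46 were identical. By construction, the alternatives use fewer peaks, other windows or starts, joined peaks or a larger minimum overlap. The list resolves neither depth nor replicates, and separate signal tracks were not analysed here, so how close a gene without a peak came to having one was not examined.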
